A study of Mus musculus with 6 samples.

Results

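The Bex genes encode small, largely unstructured proteins that were named for their expression in brain and their position on the X chromosome. The 3 genes described here, Bex1, Bex2 and Bex4, were followed on 6 arrays among 22180 mouse genes measured there. They were chosen by symbol from the platform annotation, because the value of Bex1 on day 3 of induction stood far above that in fibroblasts. That difference is therefore given as a description only. Bex3 and Bex6, the other Bex genes of the annotation, and 7 genes of the related Tceal family are given beside them, which makes 12 genes in all.

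Each array held total RNA of 1 sample, so no group had a replicate and no difference below could be tested. The groups were fibroblasts of mouse embryos (MEF), such fibroblasts after 3, 7 and 14 days of induction to parvalbumin neurons (iPV), iPV cells of day 14 sorted for green fluorescence, and a last sample that its label calls endogenous parvalbumin (PV) neurons. Every sample carries the labels PV-GFP transgenic, strain C57BL/6 and embryos of 13.5 days. In PV-GFP mice a transgene marks parvalbumin cells with green fluorescent protein. Cells were infected with adenovirus for induction, and the same text on infection stands with all 6 samples, MEF included. The sources used here do not name the genes carried by the virus. The question behind the series is how the transcripts of induced cells change with time. RNA came from whole samples, in which fewer expressing cells and less RNA per cell cannot be told apart.

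Bex1 is known as a partner of the p75 neurotrophin receptor that was linked to cell cycle exit. Bex2 was described as a partner of the transcriptional cofactor Lmo2. Bex3, also called Nade or Ngfrap1, binds the death domain of the p75 receptor. The Tceal proteins resemble a transcription elongation factor, and most of their genes lie between the Bex genes on the X chromosome. Bex1, Bex2 and Bex4 have Entrez identifiers 19716, 12069 and 406217 here. RefSeq lists the symbol Bex4 as an older name of Bex1 and the symbol Bex1 as an older name of Bex2, so the identifier and not the symbol alone fixes each gene.

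Promoter windows of 300 bases, 250 before the annotated start and 50 after it, were read from RefSeq for all 12 genes. The Bex windows are shown because they fall into 2 pairs of closely similar sequence. Capitals mark the longest unbroken stretch shared by each pair.

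Bex1 promoter, GRCm38.p6 chrX:136215464-136215763, minus strand: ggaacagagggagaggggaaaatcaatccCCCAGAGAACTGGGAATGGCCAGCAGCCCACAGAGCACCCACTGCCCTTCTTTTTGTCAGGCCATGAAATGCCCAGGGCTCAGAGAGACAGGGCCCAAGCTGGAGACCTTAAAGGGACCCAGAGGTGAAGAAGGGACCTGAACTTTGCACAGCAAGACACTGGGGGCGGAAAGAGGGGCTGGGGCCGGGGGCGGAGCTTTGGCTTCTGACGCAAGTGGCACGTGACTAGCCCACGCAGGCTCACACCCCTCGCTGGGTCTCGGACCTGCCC
Bex4 promoter, GRCm38.p6 chrX:136138746-136139045, plus strand: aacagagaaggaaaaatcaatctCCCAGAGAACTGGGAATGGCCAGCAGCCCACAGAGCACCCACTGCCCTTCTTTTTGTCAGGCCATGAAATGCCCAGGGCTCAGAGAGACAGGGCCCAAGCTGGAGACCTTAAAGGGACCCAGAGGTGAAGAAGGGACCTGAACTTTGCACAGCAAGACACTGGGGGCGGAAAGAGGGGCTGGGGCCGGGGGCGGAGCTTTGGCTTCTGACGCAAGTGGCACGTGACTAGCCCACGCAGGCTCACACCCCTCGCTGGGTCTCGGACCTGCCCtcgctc
Bex2 promoter, GRCm38.p6 chrX:136068187-136068486, minus strand: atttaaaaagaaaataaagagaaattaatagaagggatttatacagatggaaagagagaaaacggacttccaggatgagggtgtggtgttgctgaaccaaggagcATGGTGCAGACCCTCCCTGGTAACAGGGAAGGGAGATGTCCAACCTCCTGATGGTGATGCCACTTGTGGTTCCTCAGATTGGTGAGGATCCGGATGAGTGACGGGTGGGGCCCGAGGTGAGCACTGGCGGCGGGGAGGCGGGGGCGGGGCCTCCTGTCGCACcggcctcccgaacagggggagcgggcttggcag
Bex3 promoter, GRCm38.p6 chrX:136270003-136270302, plus strand: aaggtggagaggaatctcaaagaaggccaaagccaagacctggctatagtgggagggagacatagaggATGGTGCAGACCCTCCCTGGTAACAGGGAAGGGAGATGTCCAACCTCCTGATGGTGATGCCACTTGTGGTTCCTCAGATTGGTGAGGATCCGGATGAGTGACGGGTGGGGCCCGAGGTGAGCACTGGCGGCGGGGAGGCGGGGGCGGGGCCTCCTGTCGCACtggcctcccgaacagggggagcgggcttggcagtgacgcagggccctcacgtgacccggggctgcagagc

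The Bex1 and Bex4 windows shared an unbroken stretch of 271 bases and were identical at 288 of 294 aligned positions (98%). The Bex2 and Bex3 windows shared 162 bases and were identical at 228 of 263 aligned positions (86.7%). Every other pair of Bex windows shared at most 9 bases in a row. Both GC boxes of Bex1 lie inside the stretch it has in common with Bex4. These windows show sequence only, since the arrays do not measure binding or methylation.

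4 motifs were searched on both strands of the 12 genes' windows and of 32544 promoter windows of the same length in the table. GGGCGG, the GC box, was found in 8 of the 12 genes, Bex1 to Bex4 among them, and in 35.9% of all windows. CCAAT was found in 6 of 12 genes and 37.4% of windows, TATAAA in 1 gene, Bex2, and 13.6% of windows, and CANNTG, the E-box, in 12 of 12 genes and 72.3% of windows. Some genes have several windows and so more chances of a match. After the sequences were seen, the palindromic E-box CACGTG, a form of CANNTG, was added. It was in 9 of the 12 genes against 7.17% of all windows, and the longer CACGTGAC was in 8 of 12 against 2.26%. Both were picked from these same windows, so a higher share is built in and nothing is read from it. In Bex1 and Bex4 they lie inside the stretch that both genes share. Bex1, Bex3 and Bex4 hold both, and Bex2 and Bex6 have neither in this window. The stretch around CACGTG, in capitals, is shown for Bex1 and for the 3 genes that hold it and were above the detection floor on every array.

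Bex1, GRCm38.p6 chrX:136215497-136215530, minus strand: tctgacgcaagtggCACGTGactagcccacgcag
Bex3, GRCm38.p6 chrX:136270266-136270299, plus strand: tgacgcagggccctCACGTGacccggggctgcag
Tceal1, GRCm38.p6 chrX:136707967-136708000, plus strand: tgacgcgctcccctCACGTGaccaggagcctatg
Tceal8, GRCm38.p6 chrX:136172215-136172248, minus strand: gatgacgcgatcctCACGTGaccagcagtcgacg

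The same 34 bases as in Bex1 stand in Bex4. In each of these windows the letters tgacgc or tgacgcg precede CACGTG, which was seen afterwards and was not counted over all windows. Of the other genes with CACGTG, Tceal3 and Tceal6 also have these letters before a match, and Tceal5 and Tceal7 do not. A match is a description of letters, not a binding site.

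**Figure D1:**
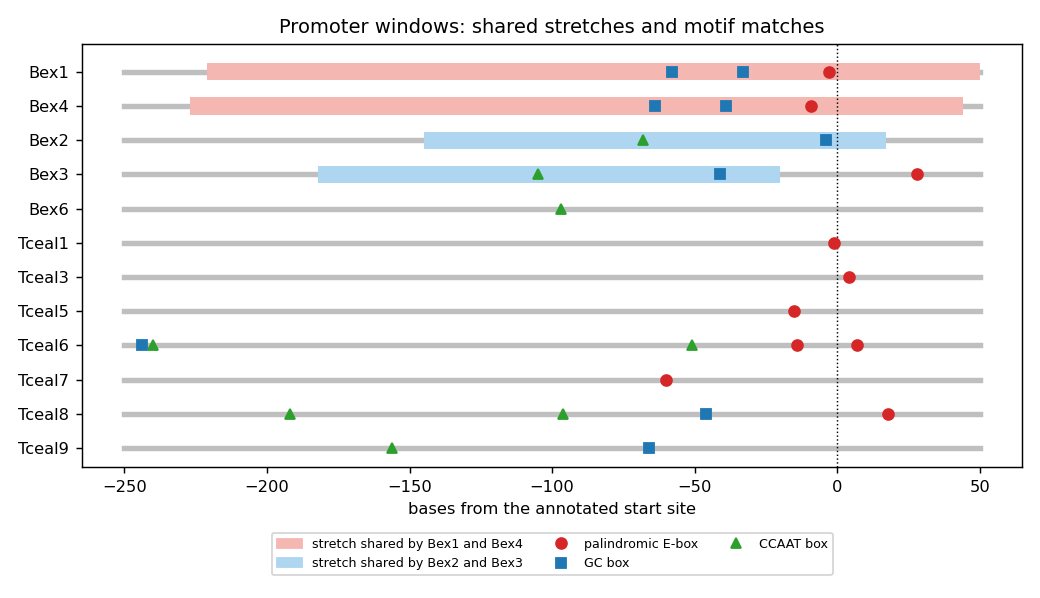
Promoter windows of the 12 genes, as distance in bases from the annotated start site (dotted line, position 0); bars are the unbroken stretches shared by Bex1 with Bex4 (271 bases) and by Bex2 with Bex3 (162 bases), circles are CACGTG, squares GGGCGG and triangles CCAAT. For Tceal genes with several windows 1 is drawn, and the palindromic E-box lies near the start in most of the 9 genes that have it.

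Values are log2 intensities. A floor stood in for detection calls: any value below 5.01, the median over non-control probe sets, was set to 5.01 before subtraction. A fold taken from a value at the floor is a bound from below and is given as "at least". The measure of error is a technical spread, the standard deviation (SD) between 2 probe sets of 1 gene in their difference between the same 2 arrays, divided by the square root of 2. It ran from 0.27 to 0.50 on the log2 scale over the comparisons and leaves out variation between cultures. All 12 fibroblast markers, among them the collagen genes Col1a1 and Col1a2, were above the floor on the endogenous-labelled array. The same held in MEF and on days 3, 7 and 14, and 11 of 12 were above it in the sorted sample. Of 8 parvalbumin and GABA neuron markers, Pvalb, parvalbumin itself, and Lhx6 were above the floor on all 6 arrays. Pvalb lay between 5.23 in MEF and 6.29 in the sorted sample, where it was 1.06 higher with a spread of 0.50, and was 5.48 on the endogenous-labelled array. In sorted cells against MEF 1 of 3 of these markers above the floor, Pvalb, passed 2-fold, beside 5.31% of all genes. Lhx6 was at -0.05 there and Gad1 at -0.18, and the median was -0.05. Gad2, an enzyme of GABA synthesis, Dlx5, Kcnc1 and Erbb4 were under the floor on all arrays. Gad1 and Slc32a1 were above it on some arrays but under it in the sorted sample.

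Bex1 was under the floor in MEF and well above it on the other 5 arrays. Its log2 value was 4.58 in MEF, 9.08 on day 3, 7.88 on day 7, 8.86 on day 14, 9.12 in the sorted sample and 7.18 on the endogenous-labelled array. The 3 highest arrays, sorted cells, day 3 and day 14, differed from their neighbours in this order by 0.04 and 0.22, less than the technical spread of 0.44 and 0.38 of those pairs. Day 14 lay 0.98 above day 7 and day 7 lay 0.70 above the endogenous-labelled array, which is more than the spread of 0.27 and 0.30. That array in turn lay at least 2.17 above MEF, with a spread of 0.42. A single probe set measured Bex1.

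**Figure D2:**
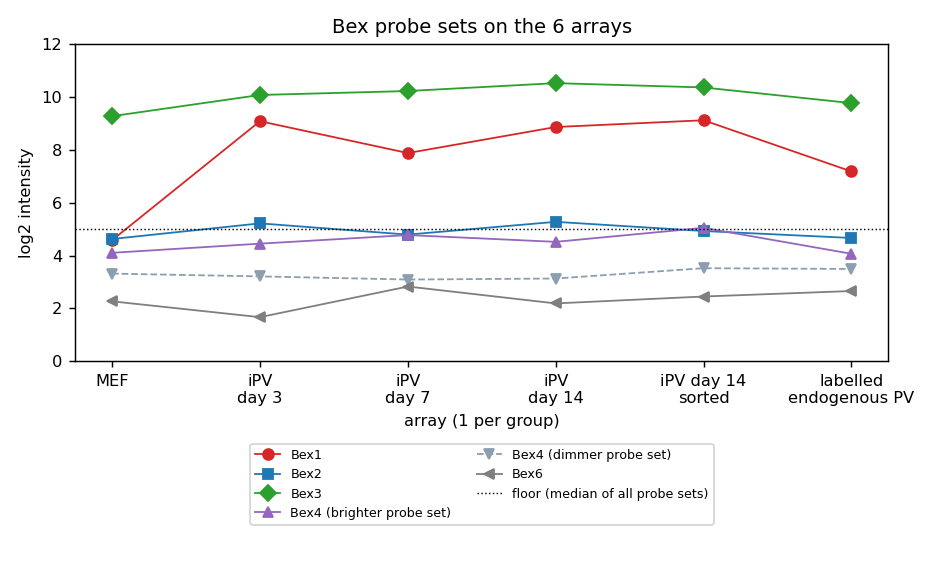
Log2 intensity of each Bex probe set on each of the 6 arrays, 1 array per group, with the floor of 5.01 as a dotted line; lines only connect values of 1 probe set. Bex1 goes from 4.58 in MEF to 9.08 on day 3, Bex3 stays between 9.27 and 10.52, and both Bex4 probe sets, Bex2 and Bex6 lie near or under the floor.

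Against MEF, Bex1 was at least 16.8-fold higher on day 3 of induction, the difference the gene was chosen by. It was at least 7.28-fold higher on day 7, at least 14.4-fold on day 14, at least 17.2-fold in the sorted sample and at least 4.50-fold on the endogenous-labelled array. These comparisons share the MEF array that the choice used. With a floor at percentile 75 the last of them was 0.60 on the log2 scale, under 2-fold. From day 3 to day 7 Bex1 was 2.30-fold lower, a log2 difference of -1.20 with a spread of 0.33, and the day 3 array is one the choice used. From day 7 to day 14 it was higher by 0.98, just short of 2-fold, and centring on housekeeping genes gave 1.04.

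3 comparisons use neither the MEF nor the day 3 array, namely day 14 against day 7 above and the 2 that follow. Sorted cells differed from unsorted day 14 cells in Bex1 by 0.26, within the spread of 0.33, at rank 3350 from the highest. Sorted cells had 3.83-fold more Bex1 signal than the endogenous-labelled array, a log2 difference of 1.94 with a spread of 0.32, rank 21 from the highest.

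**Figure D3:**
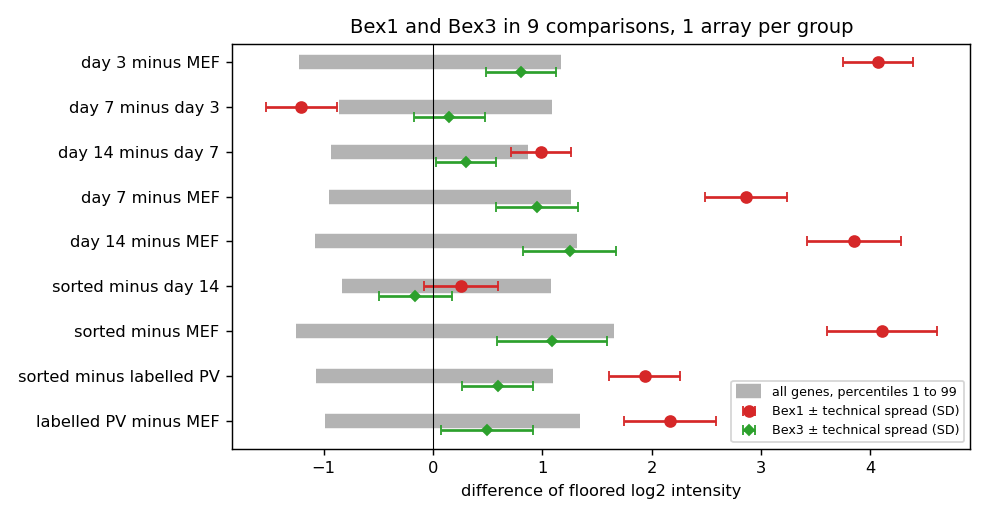
Difference of floored log2 intensity in 9 comparisons for Bex1 (circles) and Bex3 (diamonds), with the technical spread (SD) as error bars and grey bars from percentile 1 to 99 of all 22180 genes. Bex1 lies inside the grey bar for sorted against day 14 (0.26) and outside it elsewhere; its differences against MEF are lower bounds, and comparisons with MEF or day 3 share an array with the choice of the gene.

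Bex2 and Bex4 stayed near or under the floor on all arrays. Bex2 had 4.63 in MEF, 5.22 on day 3, 4.79 on day 7, 5.28 on day 14, 4.93 in the sorted sample and 4.67 on the endogenous-labelled array. Only day 3 and day 14 were above the floor, by less than the spread: the floored difference from MEF was 0.21 on day 3 and 0.26 on day 14. Bex4 has 2 probe sets. The brighter one had 4.10 in MEF, 4.45 on day 3, 4.78 on day 7, 4.52 on day 14, 5.05 in the sorted sample and 4.07 on the endogenous-labelled array, so only sorted cells passed the floor, by 0.04. The dimmer one lay between 3.09 and 3.52 on all arrays. With no floor, the brighter probe set was 0.95 higher in the sorted sample than in MEF and the dimmer one 0.20. At or under the floor on 5 of 6 arrays by the brighter probe set and on 6 by the dimmer, Bex4 has no measured difference to set beside that of Bex1. Levels of different probe sets are not on 1 scale and are not compared.

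Bex3, the p75-binding member, was above the floor on every array and higher on all 5 others than in MEF. Its value was 9.27 in MEF, 10.07 on day 3, 10.22 on day 7, 10.52 on day 14, 10.36 in the sorted sample and 9.76 on the endogenous-labelled array. Differences from MEF were 0.80 on day 3, 0.95 on day 7, 1.25 on day 14 and 1.09 in the sorted sample, with spreads of 0.32, 0.38, 0.43 and 0.50. Day 14 was 2.38-fold and sorted cells 2.12-fold above MEF, the only 2 comparisons in which Bex3 passed 2-fold, and both stayed past it under the 5 alternative settings of scaling, floor and probe set. In the order of its levels neighbouring arrays differed by less than the spread, except the endogenous-labelled array, which lay 0.49 above MEF with a spread of 0.42. Unlike Bex1, Bex3 was not lower on day 7 than on day 3, with a difference of 0.15. Bex6, which lies on chromosome 16, stayed between 1.67 and 2.83, under the floor on every array.

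Of the 12 Bex and Tceal genes, 4 were above the floor on every array (Bex3, Tceal1, Tceal8 and Tceal9), 5 on some arrays (Bex1, Bex2, Bex4, Tceal3 and Tceal5) and 3 on none (Bex6, Tceal6 and Tceal7). Tceal1 was lower on the other 5 arrays than in MEF. It had 6.76 in MEF, 6.35 on day 3, 6.28 on day 7, 6.10 on day 14, 5.94 in the sorted sample and 6.55 on the endogenous-labelled array, and its differences of -0.66 on day 14 and -0.82 in the sorted sample compare with spreads of 0.43 and 0.50. With a floor at percentile 75 both were -0.18. Tceal8 moved little, between 6.57 in MEF and 6.97 on day 3. Tceal9 has 2 bright probe sets, which disagreed in the sorted sample against MEF, at 0.15 and -0.72, and in day 14 against MEF, at 0.67 and -0.09. Both gave lower values in sorted than in unsorted day 14 cells, with differences of -0.52 and -0.63. Tceal3 and Tceal5 did not go above 5.11 on any array.

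Counted over the family, at least 2-fold differences were few. The count on day 3 against MEF was 1 of 12, Bex1, where 3.07% of all genes passed 2-fold in either direction, and nothing is read from it. On day 7 against MEF it was 1 of 12, Bex1, against 2.54%. On day 14 against MEF it was 2 of 12, Bex1 and Bex3, against 3.36%, and in the sorted sample against MEF again Bex1 and Bex3, against 5.31%. The endogenous-labelled array against MEF gave Bex1 alone, against 3.1%. Day 7 against day 3 gave Bex1, lower, against 1.83%, and day 14 against day 7 gave 0 of 12 against 1.43%. Sorted against unsorted cells gave 0 of 12 against 1.87%, and sorted cells against the endogenous-labelled array gave Bex1, higher, against 2.5%. With 12 genes, of which 3 were never above the floor, 1 or 2 genes are a small number to set against these shares.

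**Figure D4:**
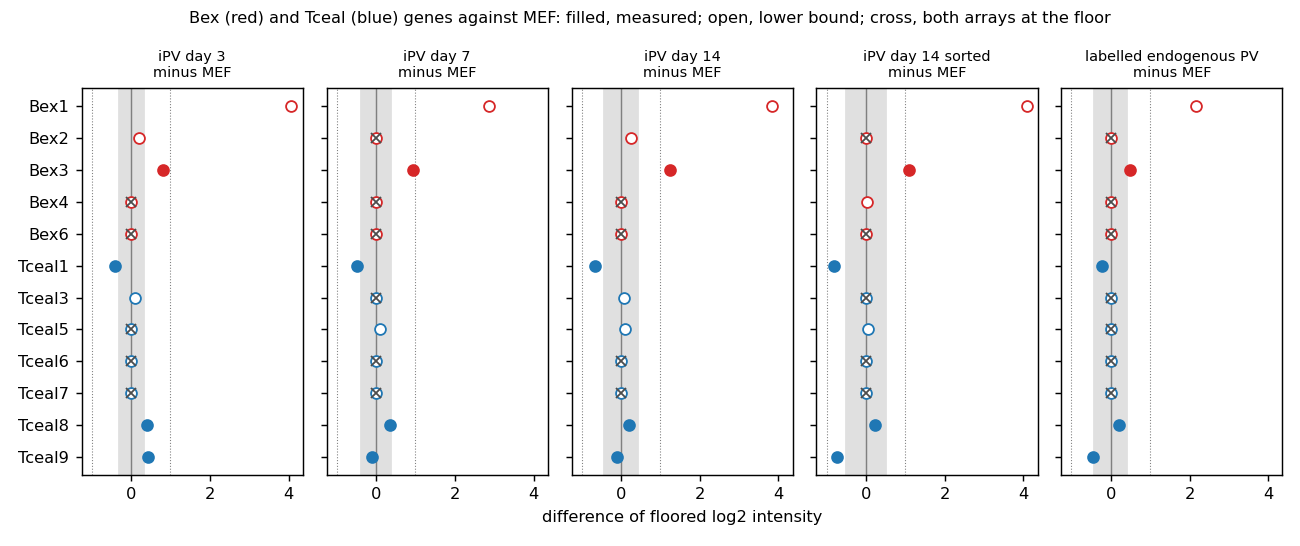
Difference of floored log2 intensity from MEF for 5 Bex (red) and 7 Tceal (blue) genes, 1 panel per array; filled points are measured, open points are bounds, crosses mark genes at or under the floor on both arrays, grey bands are the technical spread (SD) and dotted lines mark 2-fold. Bex1 stands apart in each panel, Bex3 passes 2-fold on day 14 (1.25) and in the sorted sample (1.09), and Tceal1 lies left of 0 throughout.

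Genes around the p75 receptor, to which Bex1 and Bex3 bind, mostly stayed within 2-fold. Most of all genes did so too, and nothing is read from the counts of this list. Of 25 listed names 19 were measured. Ngfr, the p75 receptor itself, lay between 4.73 on the endogenous-labelled array and 5.50 on day 7, close to the floor. On day 3 against MEF 1 of 16 genes above the floor was higher by 2-fold or more and 0 lower, beside 3.07% of all genes in either direction, and the list median was 0.13. That gene was Sort1, sortilin, a co-receptor of p75 for proneurotrophins. Sort1 had 7.54 in MEF, 8.63 on day 3, 8.47 on day 7, 8.30 on day 14, 9.56 in the sorted sample and 8.20 on the endogenous-labelled array, so sorted cells were 2.02 above MEF and 1.26 above unsorted day 14 cells. On day 14 against MEF 0 of 17 passed 2-fold in either direction, beside 3.36% of all genes, and the median was 0.30. In sorted cells against MEF 1 of 16 was higher, Sort1, beside 5.31% of all genes, and the median was 0.25. Day 7 against MEF had 1 of 17 lower, Sorcs2, another sortilin-family receptor, at a difference of -1.58, and 0 higher, beside 2.54% of all genes. The endogenous-labelled array against MEF had 1 of 18 higher, Irak1 by 1.06, and 1 lower, Sorcs2 at -1.34, beside 3.1%. Maged1, a p75-binding adaptor, lay between 10.50 on day 14 and 11.15 on day 3. Ndn, necdin, lay between 7.47 and 7.78. Nradd, a receptor homologue of p75, lay between 7.36 on day 7 and 8.20 on day 3.

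Known Bex partners and the Lmo2 complex had 11 measured genes of 14 listed names. Lmo2 lay between 5.14 in the sorted sample and 5.85 on day 3, and its binding protein Ldb1 between 9.15 in MEF and 9.75 on day 7. On day 3 against MEF and on day 14 against MEF 0 of the genes above the floor passed 2-fold, with medians of 0.16 over 8 genes and -0.06 over 7. In sorted cells against MEF 2 of 8 were higher by 2-fold or more and 0 were lower, beside 5.31% of all genes. Both were under the floor in MEF and entered the 8 only through the sorted array, so the count supports nothing. These were Ina, a neuronal intermediate filament, with 4.39 in MEF, 5.46 on day 14 and 6.90 in the sorted sample, and Gata2, a transcription factor, with 4.99 in MEF, 4.91 on day 14 and 6.38 in the sorted sample. In sorted against unsorted day 14 cells 2 of 7 were higher by 2-fold or more and 0 lower, beside 1.87% of all genes. They were again Ina, by 1.44, and Gata2. Gata2 was under the floor on day 14, so its difference of 1.37 is a bound from below, and nothing is read from this count either.

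Neuronal and other markers are given beside Bex1, and their part in its values was not tested. Of 15 neuron markers, 7 were at least 2-fold higher and 0 lower in the sorted sample than in MEF, beside 5.31% of all genes in either direction. Snap25, Nefl and Nefm, 3 of the 7, were under the floor in MEF. On day 3 against MEF 0 of the 15 passed 2-fold after the floor, beside 3.07% of all genes. For the same 3 genes that difference is a bound from below: 0.99 for Snap25, 0.25 for Nefl and 0.44 for Nefm. Their values from MEF to day 3 went from 4.44 to 6.00, from 3.08 to 5.27 and from 4.75 to 5.45. Other neuron markers were lower on day 3 than in MEF: Map2 at -0.97, Stmn2 at -0.45, Ncam1 and Rbfox3 at -0.34 and Syp at -0.16. The list median was 0.17 over the 13 genes above the floor. On day 14 against MEF Map2 was at -1.13 and Snap25 at 1.89, and in the sorted sample against MEF Gap43 was at -0.98. The summed log2 value of the 15 markers was 84.5 in MEF, 89.0 on day 3, 90.3 on day 7, 90.1 on day 14, 98.2 in the sorted sample and 88.2 on the endogenous-labelled array. Summed values in this paragraph were taken without the floor, so movement under it counts in them. Dcx and Elavl4 were under the floor on all 6 arrays. Of 12 fibroblast markers 5 were at least 2-fold lower on day 3 than in MEF and 0 higher, with a median of -0.64, and their summed value was 133.3 in MEF, 124.9 on day 3, 131.6 on day 7, 129.3 on day 14, 127.2 in the sorted sample and 132.7 on the endogenous-labelled array. Of 8 muscle and myoblast markers 1 was at least 2-fold higher on day 3 and 0 lower, beside 3.07% of all genes, and the list median was 0.10. It was Des, desmin, with 5.25 in MEF, 7.86 on day 3 and 8.42 in the sorted sample. Pax7, Myog and Myf5 were under the floor on day 3, at -0.60, -0.37 and -0.30 against MEF. Myod1, Acta1 and Tnnt1 were at 0.52, 0.13 and 0.10. Macrophage markers above the floor were at least 2-fold lower on day 3 than in MEF in 6 of 7 cases, with a median of -1.40, and the summed value of the 10 markers ran from 52.1 on day 3 to 68.8 on the endogenous-labelled array. Of the 10, Lyz2, Cd14, Cd68, Csf1r, Fcer1g and Cx3cr1 were above the floor on every array, and Ptprc and Aif1 were under it on every array. Lyz2 had 9.78 in MEF, 6.76 on day 3, 6.03 in the sorted sample and 10.05 on the endogenous-labelled array.

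Cell cycle genes, to which Bex1 was linked in other work, are set beside Bex1, and their part in its values was not tested. Comparisons in this paragraph share arrays. Among 26 measured genes of the list, day 3 against MEF gave 8 lower by 2-fold or more, 0 higher and a median of -0.50. On day 7 against day 3, where the Bex1 difference was -1.20, 12 of 26 were higher, 0 were lower and the median was 0.59. On day 14 against day 7, where Bex1 was higher by 0.98, 9 of 26 were lower, 0 were higher and the median was -0.67. Over all genes 3.07%, 1.83% and 1.43% passed 2-fold in either direction in these comparisons, in the same order. Top2a, a topoisomerase of dividing cells, had 8.51 in MEF, 6.86 on day 3, 8.47 on day 7, 6.66 on day 14, 6.76 in the sorted sample and 7.12 on the endogenous-labelled array. Its 2 highest arrays were MEF and day 7, while Bex1 was lowest in MEF and on the endogenous-labelled array. On day 7 against MEF, where Bex1 was at least 2.86 higher, 0 of 26 passed 2-fold in either direction. The share of all genes was 2.54% there and the list median 0.06. In sorted cells against the endogenous-labelled array, where Bex1 was 1.94 higher, 0 of 25 passed 2-fold in either direction. The share of all genes was 2.5% there and the list median -0.05.

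The profiles nearest to Bex1 were sought among 18659 genes with proper names, by the root mean square (RMS) difference over the 6 arrays between floored log2 profiles, each centred on its own mean. The nearest 8 were Dner, Dio2, Pcdh10, Rarb, Lrrn1, Sema3e, Frzb and Egln3, with RMS differences of 0.42, 0.44, 0.46, 0.48, 0.49, 0.50, 0.50 and 0.51. Dner is a neuronal Notch ligand, Dio2 an activating deiodinase of thyroid hormone, Pcdh10 a protocadherin, Rarb a retinoic acid receptor, Sema3e a guidance factor, Frzb a secreted Wnt antagonist and Egln3 a prolyl hydroxylase. Dner had 5.13 in MEF, 7.99 on day 3, 7.47 on day 7, 8.24 on day 14, 8.65 in the sorted sample and 7.29 on the endogenous-labelled array. A low MEF value and a lower value on day 7 than on day 3 and day 14 were shared by the 8 genes through the way they were chosen, and in Pcdh10 the step from day 3, 8.08, to day 7, 7.92, was within the spread of 0.33. Lrrn1, a leucine-rich repeat membrane protein, came closest to Bex1 in its dip, with 8.15 on day 3, 6.94 on day 7 and 7.71 on day 14. With no floor 6 of these 8 were again among the nearest 8. Within the family Bex3 was nearest to Bex1, at an RMS difference of 1.09, and Tceal1 farthest, at 1.70.

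**Figure D5:**
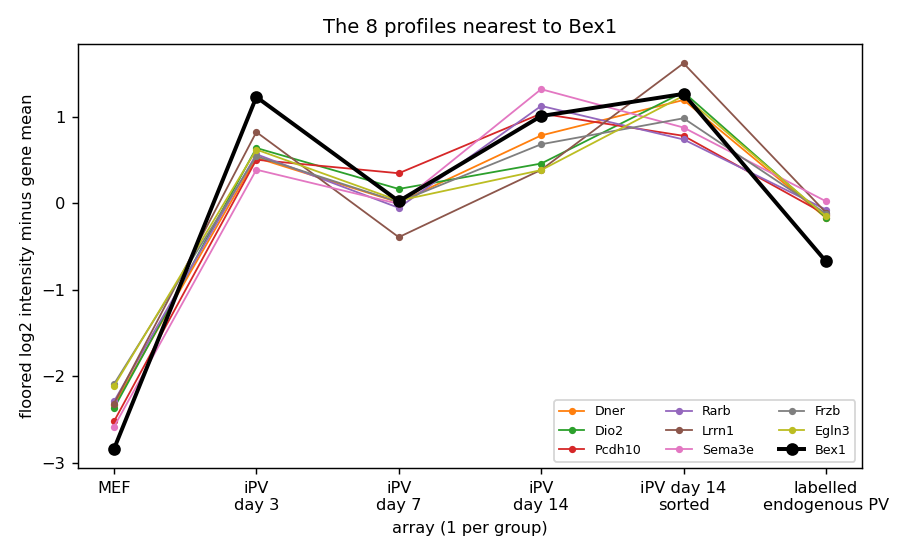
Floored log2 intensity minus the gene's own mean on the 6 arrays, 1 per group, for Bex1 (black) and the 8 genes with the nearest profiles. The genes were picked for likeness to Bex1, so the shared shape is not a finding, and the picture shows how close the picked profiles lie to it.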

How the data were processed

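Per the labels' protocols, 6 µg of total RNA from each of 6 mouse samples gave biotin-labelled cRNA for Affymetrix arrays. The values are log2 intensities from 1 table as the authors deposited it; the scale follows from the range of the values. The submitters' processing notes list Affymetrix Expression Console. How probe sets were summarised and normalized, the version and the build: not given in the sources used here. Precision is limited by the number of arrays, which is 1 per group.

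Of 41345 probe sets, 5333 below the first annotated number were left out as controls. The platform annotation gave 1 symbol for 23521, several for 1814 and none for 10677. For each of 22180 genes the probe set of highest mean was used. All 12 family identifiers were found in RefSeq (GRCm38.p6) with the same symbol. Differences are log2 values of 1 array minus another, after the floor. The technical spread came from 327 to 403 genes with 2 probe sets above the floor. The scripts were tested on simulated data. Promoters were aligned in Biopython 1.88 (match 1, mismatch -1, gap -3 and -1, free ends). Tables were made with pandas 2.3.3 and Python 3.11.15.

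Named genes were every Bex and Tceal gene, up to 4 members of each other list with the largest difference in a comparison given, and the 8 profiles nearest to Bex1. Beside this rule Ngfr, Maged1, Ndn, Nradd, Lmo2, Ldb1 and Top2a were named after their values were seen. So were the markers named by their floor status or beside a marker that moved the other way. The members and lists were chosen with earlier results of these data known. A planned comparison of protein sequences is not reported here.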

Additional observations from a re-analysis of the deposited data

How the results depend on the processing

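No paired analysis was possible because each group had 1 array, and for the same reason no array could be left out. Of 117 values and counts, 117 moved by less than the technical spread (counts by less than 1.5 times) under quantile normalization, under centring on 16 housekeeping genes and with the mean of all probe sets. Within that spread the sign turned for 4, 1 and 2 small differences of Tceal5, Tceal8 and Tceal9 under these settings. Part of this agreement was fixed beforehand. Only Bex4 and Tceal9 have more than 1 probe set, so the mean could not change the values of the other genes, Bex1 included. Bex6, Tceal6 and Tceal7 were under the floor on every array, so their differences were 0 to begin with. With the mean of both probe sets Tceal9 went from -0.11 to 0.19 on day 7 and from -0.09 to 0.29 on day 14, both against MEF. Centring shifted all genes by at most 0.07 on the log2 scale in size. It moved Bex1 on day 14 against day 7 to 1.04, past 2-fold, and the share of higher genes among those past 2-fold on day 7 against day 3 from 71.1% to 58.7%. Quantile normalization moved that share in the sorted sample against MEF from 69.1% to 57.7%. The floor sets the values of dim genes by its construction. With no floor Bex1 against MEF was 4.50 on day 3, 3.29 on day 7, 4.28 on day 14 and 2.60 on the endogenous-labelled array. Bex2 on day 3 against MEF was then 0.59. Bex4 was 0.35 on day 3 and 0.67 on day 7 against MEF, and in the sorted sample 0.53 against day 14, 0.95 against MEF and 0.98 against the endogenous-labelled array. Bex6 on day 7 against day 3 was 1.16. With a floor at percentile 75, a log2 value of 6.59, Bex1 against MEF was 2.50 on day 3, 1.29 on day 7, 2.28 on day 14, 2.53 in the sorted sample and 0.60 on the endogenous-labelled array.

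Counts of genes past 2-fold moved with floor and threshold. On day 3 against MEF the count was 681, and 1105 with no floor, 348 with the higher floor and 110 at 4-fold. On day 7 against day 3 it was 405, and 714, 218 and 25. On day 14 against day 7 it was 317, and 560, 149 and 21. On day 14 against MEF it was 745, and 1164, 411 and 103. For sorted against unsorted cells it was 415, and 751, 210 and 22. For sorted cells against the endogenous-labelled array it was 555, and 876, 299 and 82. For that array against MEF it was 688, and 1040, 374 and 102. On day 7 against MEF it was 563, with 344 at the higher floor and 90 at 4-fold, and in the sorted sample against MEF 1178, with 640 and 190.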

Other observations

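Neighbours of the Bex genes on the X chromosome showed no 2-fold difference. Most of all genes showed none either, and nothing is read from this. Of 26 listed names, among them the Armcx and Gprasp genes, Gla and Morf4l2, 17 were measured, and 13 were above the floor on day 3 against MEF, on day 14 against MEF and in the sorted sample against MEF. In these 3 comparisons 0 were at least 2-fold higher or lower, and the medians were 0.17, 0.13 and 0.09, beside 3.07%, 3.36% and 5.31% of all genes past 2-fold. Bhlhb9 had 6.55 in MEF, 6.60 on day 3, 6.87 on day 14 and 6.57 in the sorted sample. Larger differences in the sorted sample against MEF were those of Rab9b at -0.76, Timm8a1 at -0.73 and Zmat1 at 0.56.

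Stress and apoptosis genes, listed because Bex3 was described as a mediator of cell death, had 18 measured members. On day 3 against MEF 1 was at least 2-fold higher, Ddit3 by 1.80, and 1 lower, Casp8 at -1.39, beside 3.07% of all genes, with a median of 0.08. On day 14 against MEF 2 of 18 were higher and 0 lower, beside 3.36% of all genes, and the median was 0.19. The higher ones were Bcl2l1, an inhibitor of apoptosis, by 1.75 and Sesn2 by 1.66. In sorted cells against MEF 2 were higher, the same Bcl2l1 by 1.15 and Sesn2 by 1.55, and 1 lower, Casp8 at -1.06, beside 5.31% of all genes, and the median was -0.22.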
